A study of Mus musculus with 20 samples.

Results

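Metallothionein and glucocorticoid-responsive genes were followed across mouse heart and tibialis anterior muscle. They are Mt1, Mt2, Fkbp5, Tsc22d3, Zbtb16, Klf9, Sgk1, Per1, Cdkn1a and Ddit4, and they make up 10 of the 22564 protein-coding genes of the deposited expression table. The genes were selected on the FPKM of trans/mdx mice, because Mt2 and this class had been seen to be higher in those given an unnatural amino acid (UAA) than in those kept without it. The treated and untreated trans/mdx values are therefore given as a description, with no test. Tests are kept for wild-type, transgenic and mdx mice, which the stated reason for the choice does not name. Earlier results of these data were known when the choice was made.

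RNA was sequenced from 20 libraries, 2 hearts and 2 muscles in each of 5 groups. Whether a heart and a muscle came from the same mouse is not stated. Wild-type mice were C57BL/6N. Transgenic mice, also C57BL/6N, carried a UAA incorporation system placed in the genome by microinjection of linearized plasmids into fertilized eggs. Neither the promoter that drives it nor the number of founder lines is stated. Mdx mice carried a nonsense mutation in Dmd, the dystrophin gene, and were labelled C57BL/10, so that strain and mutation cannot be told apart. Trans/mdx mice came from a cross of these lines and were labelled C57BL/6N. They were kept without UAA or were given 50 mg of NAEK, an azide-bearing lysine derivative, at intervals of 2 to 3 days for 4 weeks. Whether untreated mice received a vehicle is not stated, nor are the ages. Both untreated trans/mdx muscle libraries are labelled transgenic by genotype, and they were placed in this group by their titles.

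Levels are FPKM, fragments scaled to transcript length and to the mapped fragments of the library. Read from the steps between low values, the depth was 3.03e+06 to 4.1e+06 fragments in hearts and 1.95e+06 to 2.53e+06 in muscles. For a 1 kb transcript 1 fragment was then worth 0.244 to 0.330 FPKM in hearts and 0.396 to 0.514 in muscles. Cardiomyocyte genes (Myh6, Tnni3, Myl7, Nppa and Actc1) together reached 1422 to 2920 FPKM per heart and 3.53 to 125 per muscle, while the sum of fast skeletal fibre genes was 15468 to 30836 FPKM per muscle and 63.1 to 151 per heart, so the markers follow the tissue labels. Muscle wild-type replicate 2 stood apart from the other muscle libraries, with the highest FPKM sum (208611) and the most genes at 1 FPKM or more (8530). The untreated trans/mdx hearts held both extremes of their tissue, with the highest FPKM sum in replicate 1 (171689) and the lowest sum (113544) and fewest genes at 1 FPKM or more (5113) in replicate 2.

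Metallothioneins are small cysteine-rich proteins that bind zinc and copper and buffer free metal. Their genes are induced when zinc loads the transcription factor MTF1, which then binds metal response elements in their promoters, and they also respond to glucocorticoids. Glucocorticoids act through the receptor Nr3c1, which is held by Hsp90 chaperones until hormone binds and then enters the nucleus to bind glucocorticoid response elements. In striated muscle, glucocorticoid-induced genes take part in feedback on the receptor (Fkbp5), restraint of inflammation (Tsc22d3), inhibition of growth signalling (Ddit4) and protein and ion handling (Sgk1).

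Mt2 (8:94172664-94173568, mm10, plus strand) and Mt1 (8:94179082-94180327, plus strand) lie next to each other, with 5514 bases from the end of Mt2 to the start of Mt1. Their promoters are shown because the genes share a family and a locus. Both windows are the 250 bases before the RefSeq transcript start (GRCm38.p6, plus strand, 5′ to 3′), and capitals mark the metal response element core, TGCACNC or TGCGCNC on either strand.
Mt2 promoter, 8:94172368-94172617: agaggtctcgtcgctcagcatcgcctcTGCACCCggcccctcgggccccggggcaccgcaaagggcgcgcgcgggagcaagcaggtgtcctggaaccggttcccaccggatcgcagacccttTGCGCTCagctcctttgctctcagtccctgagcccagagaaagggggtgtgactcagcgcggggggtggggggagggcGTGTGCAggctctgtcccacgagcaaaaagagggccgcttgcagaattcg
Mt1 promoter, 8:94178839-94179088: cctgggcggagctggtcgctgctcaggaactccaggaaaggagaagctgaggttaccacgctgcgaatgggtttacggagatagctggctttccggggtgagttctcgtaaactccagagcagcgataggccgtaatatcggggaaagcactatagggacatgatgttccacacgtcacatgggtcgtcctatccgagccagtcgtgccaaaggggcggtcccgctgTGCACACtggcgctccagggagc
The Mt2 window held 3 cores, at 223 to 217, 128 to 122 and 50 to 44 bases before the start, and the Mt1 window held 1, at 23 to 17 bases before it. At least 1 core occurred in 21.4% of the 32851 mouse promoter windows of this length, and 3 or more in 1.26%. Over the window extended to the 50 bases after the start, Mt2 held 4 cores and Mt1 held 3, a number of 3 or more that 1.97% of promoters reached. The gap in cores between the genes thus depends on the window, and the part of the cores in their levels was not tested.

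Sgk1 was the member with a full glucocorticoid response element (AGAACA, any 3 bases, then TGTTCT) among the 18 promoter windows available for 9 of the genes. The element is shown with 10 bases on either side, and capitals mark it.
Sgk1, 10:21993691-21993725 (GRCm38.p6, plus strand): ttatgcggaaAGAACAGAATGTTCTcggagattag
It lay 189 to 175 bases before the start of 1 of 6 RefSeq transcript starts of Sgk1, and 3 of all 32851 windows held such an element. The shorter hexamer AGAACA, which the full element contains, occurred in 16.1% of all windows and, among the members, in 3 windows of Sgk1 and 1 of Tsc22d3. These matches describe letters in the windows and do not show binding.

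Mt2 was the member whose level in treated hearts stood farthest from the other hearts. It lay at 23.1 and 16.4 FPKM in treated trans/mdx hearts and at 1.25 and 3.77 FPKM in untreated trans/mdx hearts. Wild-type hearts held 6.77 and 2.25 FPKM, transgenic hearts 7.13 and 2.25, and mdx hearts 6.63 and 11.1. Both treated hearts were thus above all 8 other hearts, and the mean of treated hearts was 7.86 times that of untreated ones. On the log2(FPKM + 1) scale the treated minus untreated difference was 2.64 (pooled within-group SD 0.59, 2 mice per group), beside a median of 0.15 over all 8269 genes that passed the filter of 1 FPKM in at least 2 libraries. Against wild-type, transgenic and mdx hearts the same difference was 2.03, 1.99 and 1.09.

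The transcript is short, and the level rests on few fragments. The low values of Mt2 moved in steps that fit an effective length of 395 bases, and all 10 of them were whole multiples to within 0.15 steps. The step was chosen for this closeness, which is therefore no check of it. Higher values, those of treated hearts among them, had no part in the choice. By that step treated hearts held about 28 and 25 fragments, untreated hearts 2 and 5, and the remaining hearts 3 to 18. In the same hearts, genes at a mean of 5 FPKM or more whose longest transcript is under 800 bases had a median treated minus untreated difference of 0.38 (103 genes, 42.7% with both treated hearts above both untreated ones). Longer genes had a median of 0.21 (1589 genes, 26.2%). The length limit was chosen after the data were seen, and the part of transcript length in the Mt2 difference was not tested. An antisense gene, Gm45774, overlaps an exon of Mt2, and the sources do not say whether counting used strand.

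Mt1, the abundant metallothionein of these hearts, did not set treated hearts apart from wild-type, transgenic or mdx hearts. It lay at 39.5 and 49.5 FPKM in treated hearts and at 35.3 and 20.5 in untreated trans/mdx hearts, a log2 difference of 0.70 (SD 0.41). Wild-type hearts held 39.6 and 34.4 FPKM, transgenic hearts 44.0 and 45.5, and mdx hearts 43.6 and 52.8. The treated hearts were inside the range of these 6 hearts, while untreated replicate 2 was the lowest of all 10. The ratio of Mt1 to Mt2 FPKM was 1.71 and 3.01 in treated hearts and 4.74 to 28.2 in the other 8. The longest stretch of identical sequence between any transcripts of Mt1 and Mt2 was 20 bases.

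**Figure D1:**
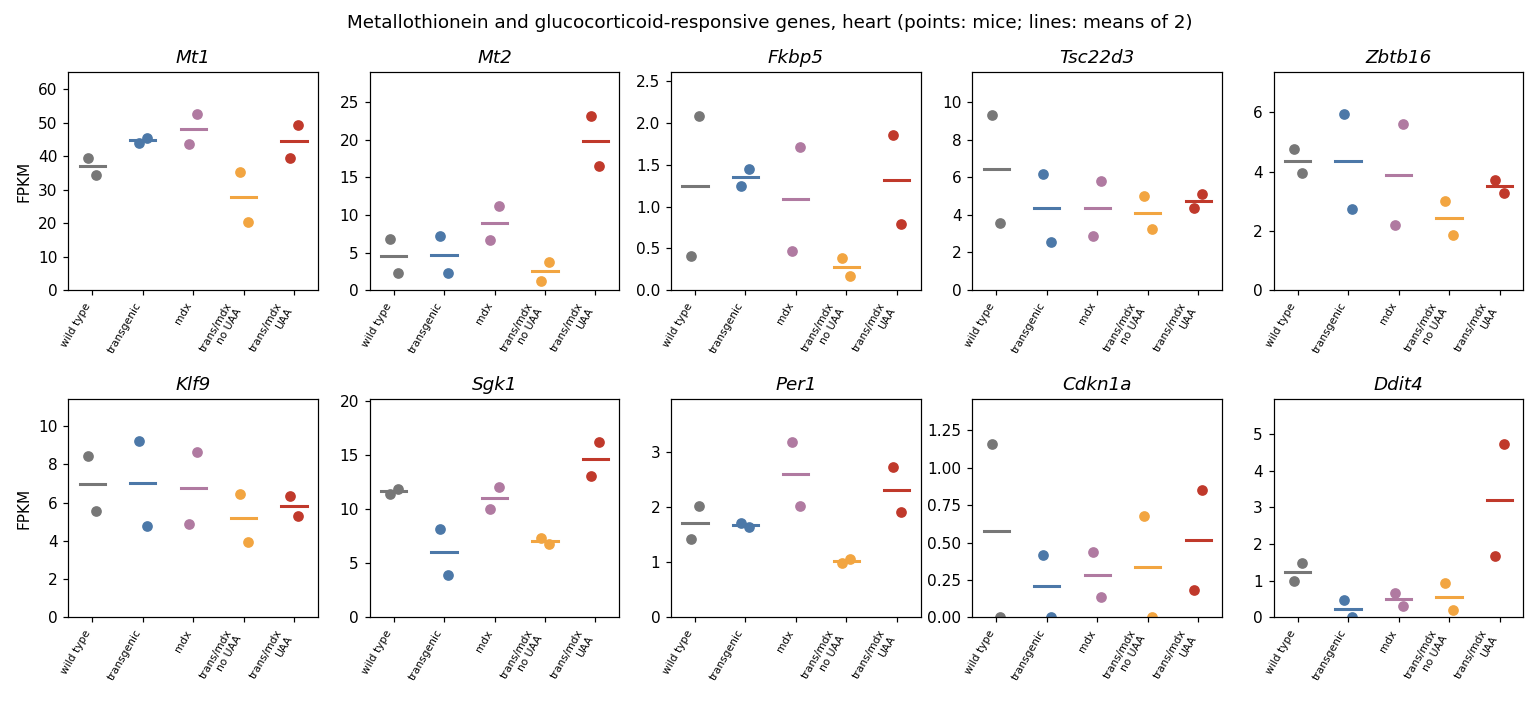
FPKM of the 10 genes in heart, 1 panel per gene with its own axis from 0, 5 groups along the horizontal axis, each point a mouse and each line the mean of 2. Treated trans/mdx hearts are the highest pair for Mt2 (23.1 and 16.4 FPKM), Sgk1 (13.1 and 16.2) and Ddit4 (1.67 and 4.73), and lie among the other hearts for the remaining genes.

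In muscle, metallothionein levels were lower and varied widely between mice of a group. Mt2 lay at 3.44 and 3.51 FPKM in treated muscle and at 1.16 and 0 in untreated trans/mdx muscle, which corresponds to about 3 and 3 against 1 and 0 fragments. Wild-type muscle held 0 and 4.01 FPKM of Mt2, transgenic muscle 3.81 and 8.66, and mdx muscle 1.12 and 8.56. Treated muscle was therefore in the middle of the range, with 4 of the other 8 libraries above it and 4 below. Mt1 lay at 9.56 and 4.88 FPKM in treated and at 3.63 and 2.32 in untreated trans/mdx muscle. It lay at 1.26 and 15.7 FPKM in wild-type, 10.6 and 11.6 in transgenic and 0 and 12.8 in mdx muscle. Within wild-type and within mdx muscle the same mouse was low for Mt1 and for Mt2. Over the 10 muscle libraries the pair had a Pearson r of 0.78 and a Spearman rho of 0.90 on the log2 scale, as a description of libraries that share low depth.

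Sgk1 encodes a serum- and glucocorticoid-induced kinase that regulates ion channels and protein turnover (10:21882184-21999903, plus strand). It lay at 13.1 and 16.2 FPKM in treated hearts and at 7.38 and 6.82 in untreated trans/mdx hearts, a log2 difference of 0.95 (SD 0.15). Wild-type hearts held 11.5 and 11.9 FPKM, transgenic hearts 8.19 and 3.96, and mdx hearts 10.0 and 12.1. Treated hearts were above all 8 others, but their nearest neighbour was an mdx heart at 12.1 FPKM, and the difference from wild type was 0.30 where that from transgenic hearts was 1.21. In muscle Sgk1 was at 67.5 and 50.9 FPKM with treatment and at 30.1 and 53.7 without it, so that these groups overlapped. The other muscle values were 25.04 and 51.1 FPKM in wild type, 26.5 and 27.1 in transgenic and 17.3 and 18.7 in mdx mice.

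Ddit4, also called REDD1, is a stress- and glucocorticoid-induced inhibitor of the growth kinase mTORC1 (10:59949669-59951834, minus strand). It was the only member for which both treated libraries exceeded all 8 others in each tissue. In heart it lay at 1.67 and 4.73 FPKM with treatment and at 0.937 and 0.189 without it, a log2 difference of 1.37 (SD 0.65). Hearts of the other groups held 0.998 and 1.496 FPKM (wild type), 0.479 and 0 (transgenic) and 0.666 and 0.313 (mdx). Treated replicate 1 was close to wild-type replicate 2, at 8 fragments each by the steps of the gene, so the separation in heart rests mainly on treated replicate 2, with about 29 fragments. In muscle Ddit4 lay at 4.39 and 3.87 FPKM with treatment and at 0.887 and 1.13 without it, a log2 difference of 1.35 (SD 0.11). Wild-type muscle held 0 and 0.502 FPKM, transgenic muscle 0.647 and 0.317, and mdx muscle 0 in both mice. The muscle values correspond to about 15 and 13 fragments in treated mice and 0 to 4 in the other 8 libraries. The deposited row of Ddit4 spans a wider interval than the annotated gene, shared with rows of other genes, and what the authors' assembly assigned to Ddit4 within it was not tested.

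Fkbp5, the co-chaperone that lowers the hormone affinity of the glucocorticoid receptor (17:28399094-28517527, minus strand), separated the trans/mdx hearts at low levels. It lay at 1.85 and 0.795 FPKM with treatment and at 0.381 and 0.169 without it, a log2 difference of 0.83 (SD 0.35). Wild-type hearts spanned 0.408 and 2.08 FPKM, transgenic hearts 1.25 and 1.45, and mdx hearts 0.470 and 1.71. The untreated trans/mdx hearts were the lowest of all 10, and the treated ones were inside the range of the other groups. In muscle Fkbp5 was at 2.43 and 4.07 FPKM with treatment and 4.46 and 1.26 without it, and the highest value was 7.999 FPKM in wild-type replicate 2.

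Tsc22d3 encodes GILZ, a leucine zipper protein that restrains inflammatory transcription (X:140539528-140600659, minus strand). In heart it lay at 4.39 and 5.09 FPKM with treatment and at 5.01 and 3.23 without it, and the groups overlapped. Wild-type hearts spanned 9.32 and 3.57 FPKM, a wider gap than that between the treated and untreated means. In muscle it lay at 32.5 and 19.2 FPKM with treatment and 21.2 and 16.6 without it, beside 16.7 and 33.8 in wild type, 20.6 and 17.4 in transgenic and 16.8 and 17.1 in mdx mice. These groups overlapped too, with the highest values in 1 treated and 1 wild-type mouse.

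Zbtb16 encodes the zinc finger repressor PLZF (9:48654297-48836222, minus strand), and Klf9 a Krüppel-like transcription factor that is a direct receptor target (19:23141226-23168134, plus strand). Zbtb16 lay at 3.72 and 3.28 FPKM in treated and 3.01 and 1.85 in untreated hearts, and at 9.81 and 10.4 in treated and 6.09 and 6.66 in untreated muscle. Its treated libraries were above the untreated ones in both tissues, by 0.41 and 0.59 on the log2 scale, and the heart separation was lost under quantile or median-of-ratios scaling. In hearts 4 of the other 8 libraries exceeded both treated ones, and in muscle 1 did, wild-type replicate 2 at 10.6 FPKM. Klf9 lay at 6.34 and 5.32 FPKM in treated and 6.47 and 3.96 in untreated hearts, and at 17.9 and 15.3 against 15.2 and 16.7 in muscle. It overlapped between these groups in both tissues.

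Per1, a circadian clock repressor that the receptor also induces (11:69095217-69109960, plus strand), lay at 2.72 and 1.92 FPKM in treated and 0.988 and 1.06 in untreated hearts. The log2 difference was 0.70 (SD 0.18), and an mdx heart at 3.19 FPKM was the highest of all. In muscle it lay at 9.25 and 5.65 FPKM with treatment and 8.65 and 4.05 without it, and 2.57 to 5.98 in the 6 libraries of the other groups. The 2 highest muscle values belonged to a treated and an untreated trans/mdx mouse. Cdkn1a, the cell cycle inhibitor p21 (17:29090976-29100727, plus strand), did not pass the filter in heart, where it lay between 0 and 1.16 FPKM, or 0 to 8 fragments. In muscle it was at 0.255 and 1.97 FPKM with treatment and 1.03 and 0 without it, and highest, at 2.45, in a wild-type mouse.

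**Figure D2:**
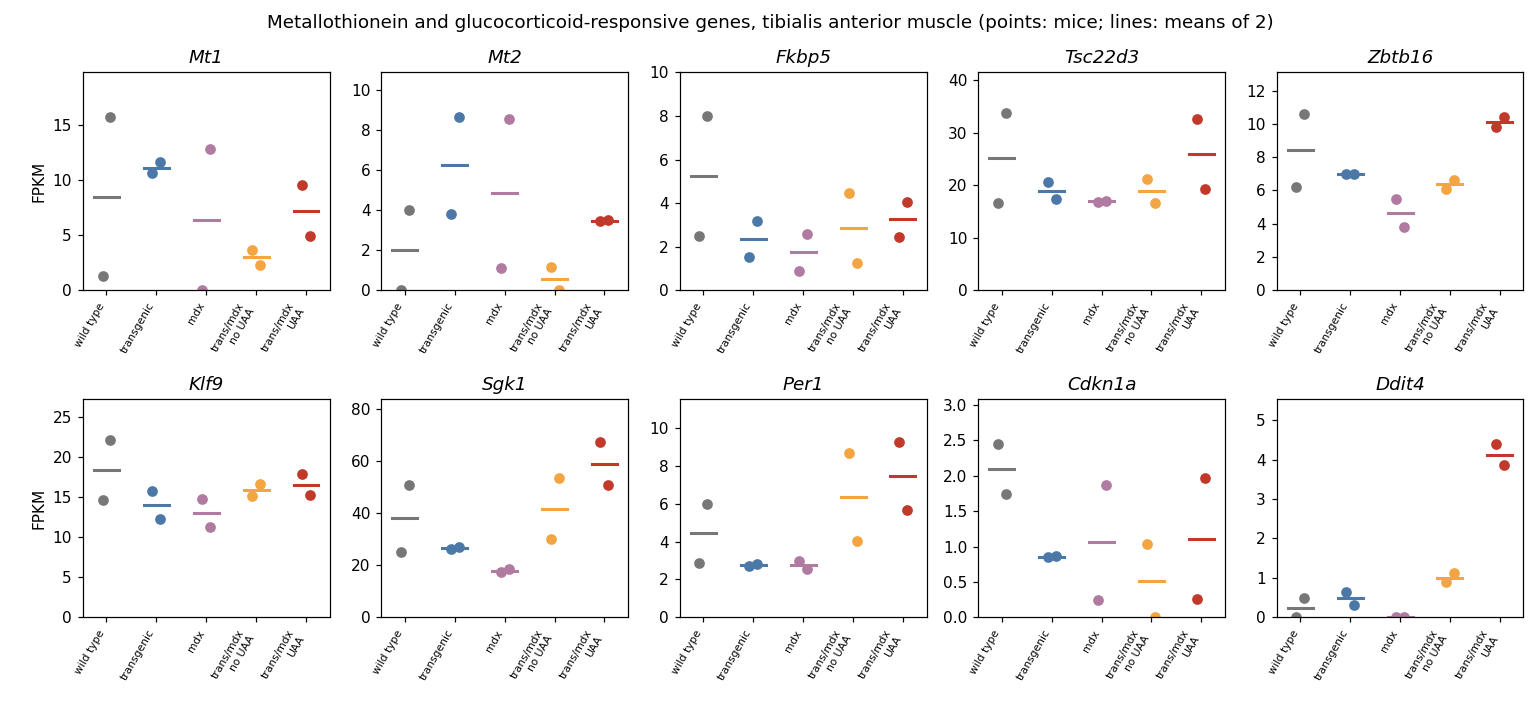
FPKM of the 10 genes in tibialis anterior muscle, 1 panel per gene with its own axis from 0, 5 groups along the horizontal axis, each point a mouse and each line the mean of 2. Ddit4 is the gene whose treated pair (4.39 and 3.87 FPKM) is above all other libraries, and mice of a group lie far apart for Mt1, such as 1.26 and 15.7 FPKM in wild type.

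Taking all members, both treated hearts were above both untreated hearts for 7 of the 9 that passed the filter, and none had both below. Among all 8269 genes 23.6% had both treated hearts above and 8.27% both below, and because this contrast chose the members nothing is read from their count. The 7 were Mt1, Mt2, Fkbp5, Zbtb16, Sgk1, Per1 and Ddit4. Tsc22d3 and Klf9 differed by 0.18 and 0.16, close to the all-gene median of 0.15, and their sign turned to -0.01 and -0.03 under quantile scaling. In muscle 4 of 10 members had both treated libraries above both untreated ones (Mt1, Mt2, Zbtb16 and Ddit4) and none below, beside 17.9% of all 9126 genes above and 14.8% below. Among the members that overlapped in muscle, the largest log2 differences were 0.53 for Sgk1 and 0.44 for Cdkn1a (SD 0.80). Among the separated ones the smallest was 0.59, for Zbtb16. Leaving out treated replicate 2 or untreated replicate 1 in muscle raised the count from 4 to 8.

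Against wild-type, transgenic and mdx mice the class was mixed in heart. These groups differ from treated trans/mdx mice in genotype as well as in UAA, and mdx mice also in the strain label. By mean log2 level, treated hearts were higher than wild-type hearts for 6 of the 9 members that passed, beside 46.9% of all genes. They were higher than transgenic and than mdx hearts for 5 of 9 each, beside 54.8% and 39.9%. In muscle the treated mean was higher than wild type for 7 of 10 members, higher than transgenic for 8 and higher than mdx for 9, beside 26.7%, 56.2% and 57.5% of all genes. These counts use the treated libraries that chose the members and have no test. Both treated hearts were above all 8 other hearts for 3 members, Mt2, Sgk1 and Ddit4, as for 2.24% of all genes. In muscle this held for Ddit4, as for 1.42% of all genes. Relative to wild-type hearts the mean log2 level in treated hearts was lower for Tsc22d3, Zbtb16 and Klf9, by -0.26, -0.25 and -0.21. Untreated trans/mdx hearts lay under wild-type hearts for all 10 members, with mean log2 differences from -0.18 for Cdkn1a to -0.71 for Fkbp5. Of all genes 67.8% lay under wild type in the same hearts, with a median of -0.19. The untreated group had the lowest mean FPKM of the 5 heart groups for 7 of the 9 members that passed, all but Sgk1 and Ddit4, and for 39.2% of all genes.

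**Figure D3:**
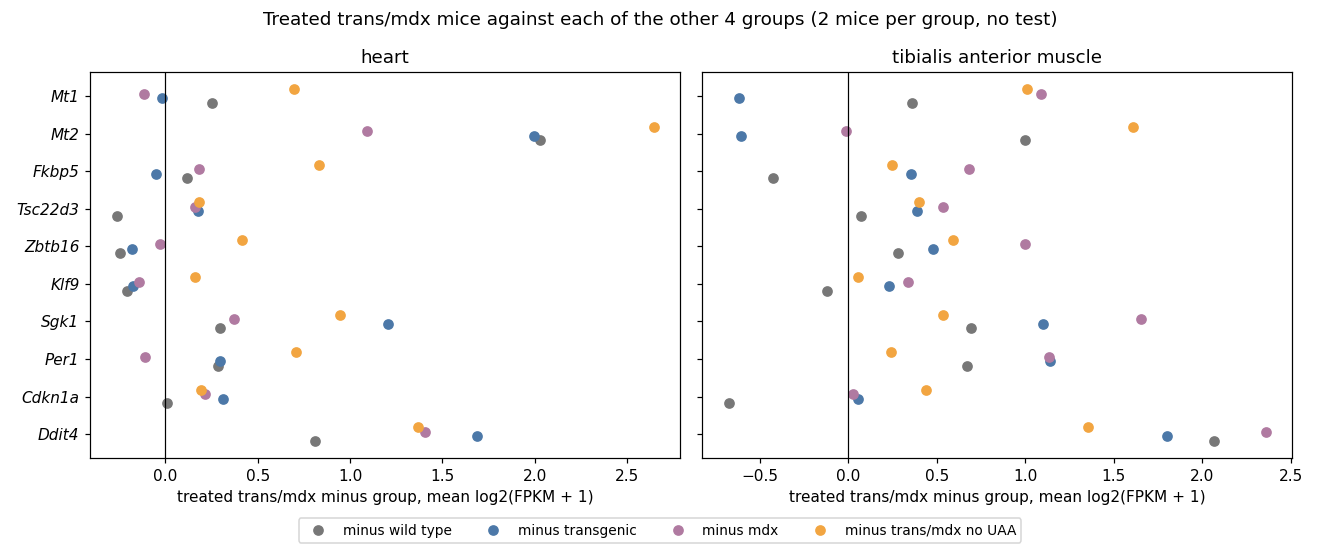
Mean log2(FPKM + 1) in treated trans/mdx mice minus that in each of the other 4 groups, by gene (rows) in heart (left) and muscle (right), each point a difference of means of 2 mice. In heart, Mt2, Sgk1 and Ddit4 have all 4 points right of 0, with Mt2 at 1.09 to 2.64. So does Cdkn1a, which did not pass the filter in heart, at 0.01 to 0.31. Klf9 and Zbtb16 lie right of 0 against untreated trans/mdx mice and left of 0 against the others.

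Markers of other cell types differed between the same trans/mdx libraries. Of all genes, 23.6% had both treated hearts above both untreated ones and 8.27% both below. In muscle these shares were 17.9% and 14.8%. In hearts the fast skeletal fibre list summed to 111 and 128 FPKM with treatment and 82.8 and 63.1 without it. The sums were 133 and 102 in wild-type, 121 and 69.5 in transgenic and 73.0 and 151 in mdx hearts. All 5 tested members of the list were above. A gene near 0 in the other hearts can pass the filter only where it is high, so nothing is read from this count. None of the 9 genes of the list was at 0 in both treated hearts. In untreated hearts 3 (Myh1, Tnni2 and Actn3) were at 0 in both, and in wild-type hearts 7 were. The atrial list of 8 genes summed to 172 and 217 FPKM in treated and 137 and 94.3 in untreated hearts, with 5 of 7 tested members above and 1 below. The cardiomyocyte list of 5 genes summed to 2075 and 2530 FPKM in treated and 2089 and 1422 in untreated hearts, with 4 of 5 above. The endothelial list had 3 of 5 above, at sums of 27.8 and 32.4 FPKM against 28.0 and 21.6. Of 5 tested adipocyte genes 4 were above in treated hearts, where the list of 9 summed to 93.7 and 85.7 FPKM against 67.4 and 81.4, with 4 of its genes (Plin1, Lep, Cidec and Retn) at 0 in both treated libraries. In muscle all 9 adipocyte genes were below, with sums of 383 and 274 FPKM against 470 and 647, and Lep and Cidec were at 0 in both treated libraries. The macrophage list of 8 measured genes summed to 4.13 and 4.52 FPKM in treated and 8.54 and 9.86 in untreated muscle, with Tyrobp at 0 in both. Of its 6 tested genes 1 was above and 1 below in treated muscle, so they did not move together. In bulk tissue fewer cells of a type and less RNA per cell cannot be told apart, and the part of these lists in the levels of the members was not tested.

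The next comparisons asked whether the genes differ in mdx or in transgenic mice from wild-type mice, with limma on log2(FPKM + 1) and Benjamini-Hochberg adjustment over all genes tested. Ddit4 is given no test, because it passed the filter only with the trans/mdx libraries, which chose it: 1 of the 6 other hearts and 0 of the 6 other muscles reached 1 FPKM. None of the 8 remaining members in heart and 9 in muscle passed, and none did when the trans/mdx libraries were left out of the filter and the fit. In heart 1 of 8269 genes passed for mdx and 1 for transgenic mice, 0.0121% each, with 219 and 279 genes at an unadjusted p under 0.05. In muscle 0 of 9126 genes (0%) passed for mdx and 0 for transgenic mice, with 921 and 904 at an unadjusted p under 0.05. With 2 mice per group the spread of single genes was wide, so these results do not show that the levels are alike.

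In mdx hearts the members with the smallest p were Mt2, with a log2 difference from wild type of 0.94 (SE 0.56, limma adjusted p = 1), and Per1, with 0.40 (SE 0.41, limma adjusted p = 1). In transgenic hearts they were Sgk1, at -0.91 (SE 0.42, limma adjusted p = 1), and Tsc22d3, at -0.44 (SE 0.51, limma adjusted p = 1). Both transgenic hearts were below both wild-type hearts for Sgk1. Single hearts moved these values: leaving out 1 gave 0.31 to 1.57 for Mt2 in mdx mice, -1.35 to -0.46 for Sgk1 and -1.03 to 0.15 for Tsc22d3 in transgenic mice. In mdx muscle Sgk1 differed by -0.96 (SE 0.38, limma adjusted p = 0.464), both mdx libraries lying below both wild-type ones. The median of all genes in that contrast was -0.35, so that Sgk1 lay -0.61 relative to it. Zbtb16 differed by -0.72 (SE 0.35, limma adjusted p = 0.499), or -0.37 relative to all genes. In transgenic muscle the members with the smallest p were Mt2, at 1.61 (SE 0.79, limma adjusted p = 0.534), and Fkbp5, at -0.78 (SE 0.57, limma adjusted p = 0.655), where the median of all genes was -0.33. Without wild-type replicate 2, the library that stood apart, these muscle medians were -0.09 and -0.07, Sgk1 and Zbtb16 in mdx muscle were at -0.46 and -0.37, and Fkbp5 and Mt2 in transgenic muscle were at -0.09 and 2.77, with no member passing. Without wild-type replicate 1, Mt2 in transgenic muscle was at 0.44 and Fkbp5 at -1.46, and Sgk1 in mdx muscle was at -1.46.

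The effects of mdx and of the transgene were also compared between the tissues, in a fit of all 20 libraries. No member passed, and neither did any of the 10085 genes (0%) for mdx or for the transgene, with 605 and 467 at an unadjusted p under 0.05. For mdx the smallest p among members belonged to Sgk1, whose effect in heart minus that in muscle was 0.88 (SE 0.55, limma adjusted p = 0.795), and Per1, at 0.86 (SE 0.56, limma adjusted p = 0.795). For the transgene it belonged to Mt2, at -1.57 (SE 1.08, limma adjusted p = 0.987), and Fkbp5, at 0.95 (SE 0.78, limma adjusted p = 0.987), again with Ddit4 left untested. Leaving out 1 library gave 0.38 to 1.38 for Sgk1, 0.43 to 1.29 for Per1, -2.73 to -0.41 for Mt2 and 0.26 to 1.64 for Fkbp5. The medians of all genes were 0.39 and 0.23.

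Heart and muscle differed in how much of these genes they held. Over the 6 heart and 6 muscle libraries of wild-type, transgenic and mdx mice, 4 of the 9 members tested passed in limma, Mt1 higher in heart and Tsc22d3, Sgk1 and Klf9 lower. Of 9511 genes 28.3% passed, 7.52% higher in heart and 20.8% lower (715 and 1975 genes, which became 1526 and 1426 under quantile scaling and 1418 and 1524 under median-of-ratios scaling). A share of 4 in 9 stands beside that background of 28.3%. The 4 calls and their directions held under both scalings, where the median of all genes moved from -0.24 to 0.01 and -0.02.

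In these 6 hearts Mt1 ranged from 34.4 to 52.8 FPKM (median 43.8), and in the 6 muscles from 0 to 15.7 (median 11.1), a log2 difference of 2.76 (SE 0.56, limma adjusted p = 0.00216). Mt2, its neighbour on the chromosome, had a difference of 0.62 (SE 0.47, limma adjusted p = 0.354), at 2.25 to 11.1 FPKM across hearts and 0 to 8.66 across muscles. The tissues were apart for Mt1 and overlapped for Mt2. Tsc22d3 was lower in heart, at 2.57 to 9.32 FPKM, against 16.7 to 33.8 across muscles (-1.88, SE 0.29, limma adjusted p = 0.000299). Sgk1 ranged from 3.96 to 12.1 FPKM across hearts and from 17.3 to 51.1 across muscles (-1.41, SE 0.24, limma adjusted p = 0.000618). Klf9 ranged from 4.76 to 9.24 FPKM across hearts and from 11.3 to 22.2 across muscles (-1.04, SE 0.25, limma adjusted p = 0.00645). For each of these 3 genes no heart reached the lowest muscle. Cdkn1a (-0.76), Fkbp5 (-0.76), Zbtb16 (-0.57) and Per1 (-0.50) had differences of the same sign that did not pass, with limma adjusted p of 0.0521, 0.0933, 0.127 and 0.119. Ddit4 did not pass the filter in these 12 libraries.

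**Figure D4:**
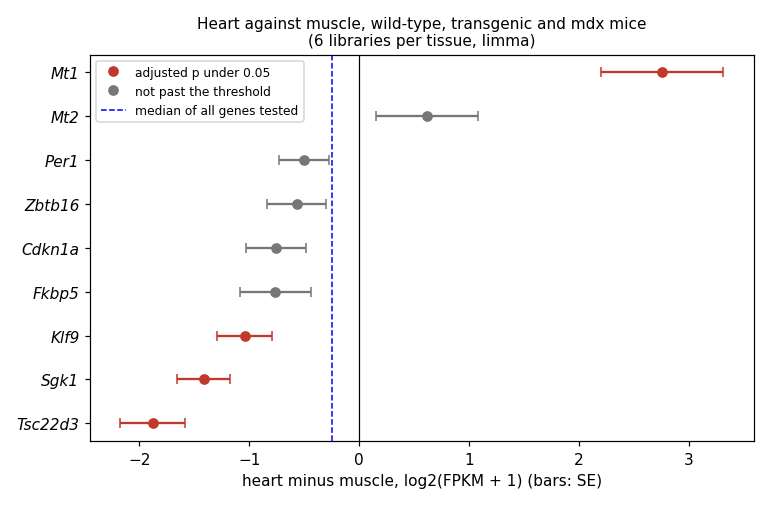
Heart minus muscle log2(FPKM + 1) for the 9 members tested (rows), points with SE bars, in 6 libraries per tissue, red where the limma adjusted p is under 0.05, with the median of all genes tested as a dashed line. Mt1 is at 2.76 and Tsc22d3, Sgk1 and Klf9 are at -1.88, -1.41 and -1.04.

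Genes around these pathways were read from lists. Of 13 genes for the glucocorticoid receptor and its handling, 12 were tested in heart against muscle. Of these 2 were higher in heart and 3 lower, with a list median of -0.26 beside -0.24 over all genes. For this list and those that follow, 7.52% of all 9511 genes were higher in heart and 20.8% lower, a split that moved with scaling. Hsp90aa1, the inducible chaperone of the receptor complex, was higher in heart by 1.96 (SE 0.22, limma adjusted p = 1.19e-05), as was the co-chaperone Fkbp4 by 0.95 (SE 0.27, limma adjusted p = 0.0182). The receptor gene Nr3c1 was lower in heart, by -0.84 (SE 0.27, limma adjusted p = 0.0307), as were H6pd (-1.32), which supplies the cofactor of the enzyme that regenerates active hormone, and the coactivator Ncoa1 (-0.81). Ncoa1 had values near 0 in some hearts that may be failed estimates. Of 20 measured genes of a further list of glucocorticoid-induced genes, 17 were tested, with 1 higher in heart (Sesn1, 1.11) and 6 lower: Bcl6 (-2.51), Cebpb (-1.46), Lpin1 (-1.35), Fbxo32 (-1.08), Irs2 (-1.04) and Dusp1 (-0.70). The median of this list was -0.67. Of the 12 zinc- and metal-handling genes tested, Mtf1, the zinc-sensing activator of metallothionein genes, and the zinc transporter Slc30a4 were lower in heart, by -0.62 (SE 0.22, limma adjusted p = 0.0451) and -0.69 (SE 0.21, limma adjusted p = 0.0269). In neither tissue did any gene of these 3 lists pass for mdx or transgenic against wild type.

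Between treated and untreated trans/mdx mice, with no test, the zinc and metal list had a median difference of 0.04 in heart, under the all-gene 0.15. In it 2 of 9 genes had both treated hearts above, the zinc importers Slc39a14 (0.89) and Slc39a10 (0.29), and none had both below. In muscle 1 of 13 was above (Slc39a3, 0.50) and 2 were below, among them Slc39a10 (-0.56). Of all genes 23.6% were above and 8.27% below in heart, and 17.9% and 14.8% in muscle. Mtf1 lay at 0.0856 and 0.843 FPKM in treated and 0.859 and 0.154 in untreated hearts, which overlap. Mt3, the metallothionein best known from brain, was at 0 in both treated hearts and at 3.29 and 0 FPKM in untreated ones.

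The receptor list had 2 of 12 genes above and none below in treated hearts, beside 23.6% and 8.27% of all genes. In treated muscle it had 4 above and 1 below, beside 17.9% and 14.8%. The list medians were 0.18 and 0.15. Hsp90aa1 was above in both tissues. In hearts it lay at 43.2 and 43.6 FPKM with treatment and at 29.7 and 23.3 without it. In muscle it lay at 13.1 and 10.6 FPKM against 7.43 and 6.49. Nr3c1 itself lay at 4.44 and 3.26 FPKM in treated and 4.53 and 2.12 in untreated hearts, and at 5.52 and 6.58 against 6.44 and 5.96 in muscle. The receptor transcript overlapped in both. The list of other glucocorticoid-induced genes had 4 of 13 above and none below in heart (median 0.22), a share near the 23.6% of all genes, and 10 of 18 above and 2 below in muscle (median 0.38), beside 17.9% and 14.8% of all genes.

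The largest separations on that list were Pdk4, a kinase that turns off pyruvate oxidation, and Dusp1, a MAP kinase phosphatase, in heart, and Arrdc2 and the EGF receptor inhibitor Errfi1 in muscle. Pdk4 lay at 13.2 and 27.8 FPKM in treated and 6.89 and 6.19 in untreated hearts, beside 13.4 and 11.2 in wild type. Dusp1 lay at 6.44 and 5.57 FPKM in treated and 3.12 and 0.941 in untreated hearts, beside 5.38 and 8.43 in wild type. Both genes had untreated hearts below the wild-type ones. For Pdk4, treated replicate 2 was the highest of all 10 hearts and replicate 1 lay within the wild-type range, and for Dusp1 both treated hearts were within that range. In muscle Arrdc2 lay at 1.85 and 2.50 FPKM with treatment and 0 and 0.198 without it, and Errfi1 at 8.98 and 4.55 against 1.56 and 1.93. Wild-type muscle held 0.645 and 2.29 FPKM of Arrdc2 and 1.62 and 5.72 of Errfi1, so that a wild-type library was inside the treated range for each.

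**Figure D5:**
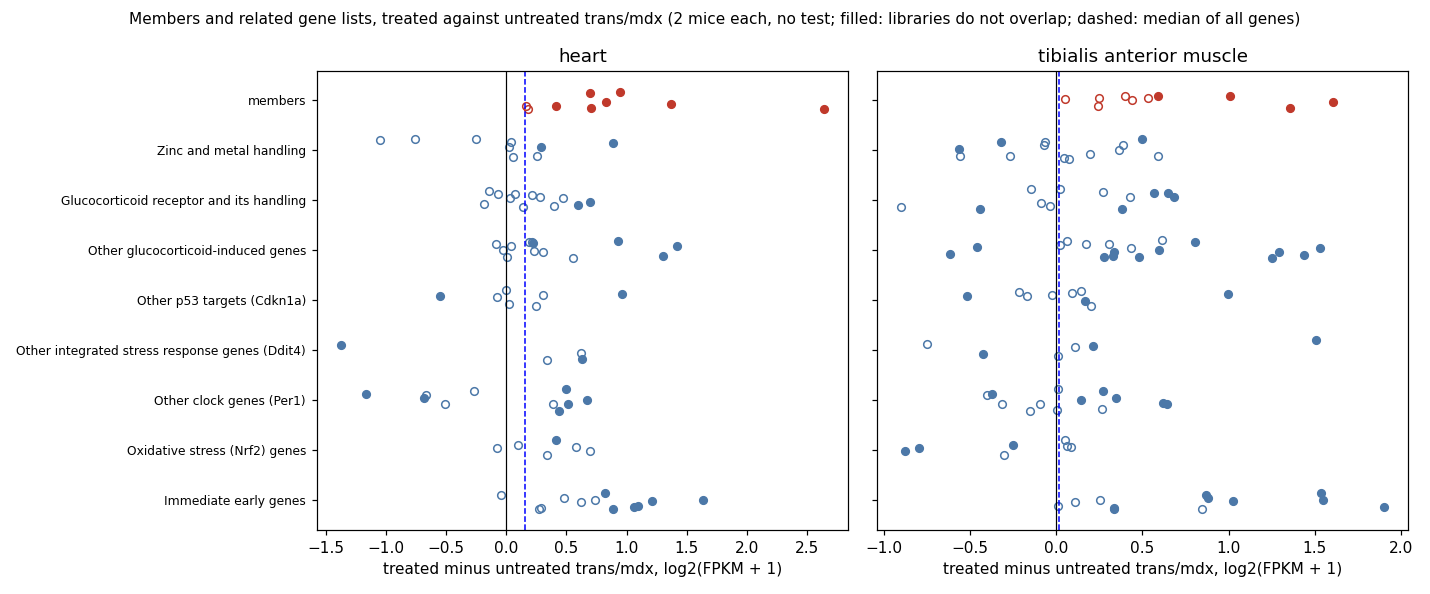
Treated minus untreated trans/mdx log2(FPKM + 1) for the members (red) and the genes of 8 related lists (blue, rows), in heart (left) and muscle (right), filled where the 2 treated and 2 untreated libraries do not overlap, with a dashed line at the median of all genes. Mt2 in heart, at 2.64, is the point farthest from 0, and the other glucocorticoid-induced genes in muscle have 10 of 18 filled points right of 0 and 2 left of it.

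The genes whose pattern over the 10 hearts was most like that of Mt2, by Pearson r on the log2 scale among 1697 genes with a mean of 5 FPKM or more, were Fxyd1 (0.87), Rpl27a (0.85), Sec61g (0.81), Rpl27 (0.78) and Eef1g (0.77). Fxyd1, the regulator of the sodium pump phospholemman, lay at 46.8 and 57.3 FPKM in treated and 17.2 and 25.7 in untreated hearts. Among the members, Sgk1 was at rank 49 (r 0.69) and Mt1 at rank 464 (r 0.42). In muscle, among 2398 genes, the most alike were Fis1 (0.88), Tmsb10 (0.86), Nucb1 (0.83), BC005624 (0.80) and Cul4a (0.77), and Mt1 was at rank 5 (r 0.78). These values describe 10 libraries of a tissue that share groups and depth.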

How the data were processed

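RNA of 20 libraries had been depleted of ribosomal RNA and prepared with a directional kit, per the labels' protocols. The authors deposited FPKM values per protein-coding gene in a single table; the submitters' processing notes list the build mm10 and the tools Cufflinks, Cuffdiff, HISAT2 2.0.4 and cutadapt 1.9.3, and state no role, annotation or strand use. The table gives no counts, so no count model was run, and depth was read from steps between low values, 78.1 to 88.9% of which lay within 4% of whole steps. 1 emptied line was not analysed. Each exact 0 may be a failed estimate.

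Values were transformed as log2(FPKM + 1), and genes at 1 FPKM or more in at least 2 libraries of a fit were tested with limma 3.58.1 (R 4.3.3, trend, two-sided, Benjamini-Hochberg at 0.05), which was first tested on simulated data. Residual degrees of freedom were 5 within a tissue, 6 for heart against muscle in 3 groups and 10 over all libraries. No test was made of the trans/mdx groups, whose difference had picked the members. Replicates are from different mice, per the labels' protocols, and heart and muscle libraries were treated as independent. Named were all members, those passing or else the 2 with the smallest p (Ddit4 apart, which passed the filter only with trans/mdx libraries), and from each list the genes that passed or, between trans/mdx groups, up to 2 with the largest separated difference. Mtf1, Mt3 and Nr3c1 values between trans/mdx groups were added after being seen. Members, lists and rules were chosen with earlier results of these data known. Promoter sequences are those of RefSeq on GRCm38.p6, matched by symbol for 9 members, and gene coordinates are of GENCODE M21, 1-based. Python 3.11.15 was used for the rest.

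Alternatives were another pseudocount, filters, scalings, a replicate term, the compared libraries alone, leaving out each mouse and, chosen after seeing the data, leaving out all trans/mdx libraries.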

Additional observations from a re-analysis of the deposited data

Results flagged for a closer look

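Of the related lists, 3 genes had both treated trans/mdx libraries on one side of both untreated ones in heart and on the opposite side in muscle. The difference between the tissues was not tested for any of them. Ddit3, the stress-induced transcription factor CHOP, lay at 1.19 and 2.70 FPKM in treated and 8.29 and 4.88 in untreated hearts, and at 6.71 and 1.61 against 0.561 and 0.594 in muscle. Its log2 difference was -1.38 in heart and 1.51 in muscle, and the heart value minus the muscle value was -2.88. Atf5, a transcription factor of the same stress response, differed by 0.63 in heart and -0.42 in muscle, a gap of 1.05. Slc39a10, a zinc importer, differed by 0.29 in heart and -0.56 in muscle, a gap of 0.85.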

How the results depend on the processing

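No member passed in a comparison with wild type, or for a difference of effects between tissues, under any alternative run, and heart against muscle called 4 to 6 members. Counts over all genes were small and moved. For mdx against wild type in heart, 1 gene became 2 with a pseudocount of 0.1 FPKM, quantile scaling or median-of-ratios scaling, 4 with no filter or with the trans/mdx libraries left out and 8 with only the 4 libraries compared, and 1 to 2 when a mouse was left out. For transgenic hearts, 1 became 2 with the trans/mdx libraries left out, 0 with a pseudocount of 0.1, no filter or a mean of 5 FPKM or more, and 0 without any 1 mouse. In muscle the 0 genes for mdx became 1 (pseudocount), 3 (no filter), 2 (mean of 5) and 1 (4 libraries, or no trans/mdx libraries), and 0 to 1 without a mouse, and the 0 for transgenic mice became 2 (mean of 5), 1 (4 libraries) and 0 to 1. Between tissues, 2690 calls became 1162 at a mean of 5 FPKM or more, where fewer genes were tested. The 0 calls for the mdx effect became 8 with no filter, 1 with quantile scaling and 0 to 1 without a mouse, and those for the transgene 9 with no filter and 0 to 2 without a mouse. Members separated between trans/mdx groups numbered 7 in heart (6 under either scaling) and 4 in muscle (5 to 8 without a mouse). The causes of these shifts were not tested, apart from the number of genes tested. Of 61 values of members in tested comparisons, 31 took the other sign under at least 1 alternative, 26 of them smaller than their SE. Of the values named, this held for Tsc22d3 in transgenic hearts, at -1.03 to 0.15 without a mouse (0.06 without transgenic replicate 2). Same-numbered mice did not deviate together (correlations from -0.0842 to 0.0482), and the main fits did not pair samples by number. Low depth could hide a shared mouse, so these correlations do not show whether a heart and a muscle came from the same mouse. With a replicate block, mdx hearts had 2 calls, heart against muscle 5 members, and no other call on a member changed. Mt2, Cdkn1a and Ddit4 rest on 0 to 29 fragments per library.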

Other observations

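Further lists bear on pathways that reach the same genes, read between treated and untreated trans/mdx mice with no test. Immediate early genes had 6 of 12 above and none below in treated hearts (median 0.78) and 7 of 12 above and none below in treated muscle (median 0.86), beside 23.6% and 17.9% of all genes above. Nr4a1, an orphan nuclear receptor, lay at 5.91 and 4.81 FPKM in treated and 1.23 and 0.866 in untreated hearts, and at 0.491 to 1.53 in the other 6. Nr4a3 lay at 9.73 and 4.94 FPKM in treated and 0.803 and 1.53 in untreated muscle. Egr1 in heart (1.21) and Nr4a2 in muscle (1.55) were the next largest. Nr4a2 lay at 3.21 and 1.03 FPKM in treated muscle and at no more than 0.473 in any other muscle library. It passed the filter only through the treated libraries, so its separation, counted among the 7, was fixed by the filter. The same held for Nr4a3 in heart, counted among the 6. It lay at 1.17 and 2.57 FPKM in treated hearts, and the highest other heart was at 0.767. The wild-type hearts, at 9.10 and 6.81 FPKM of Egr1, were above the treated ones, at 5.97 and 4.29. Heart against muscle, Ier3 and Fosb were higher in heart (1.10 and 0.76) and Nr4a1 and Fos lower (-2.88 and -1.27). These were among 10 genes of the list tested, beside 7.52% of all genes higher in heart and 20.8% lower.

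The treated against untreated counts that follow stand beside 23.6% of all genes above and 8.27% below in heart. In muscle these shares were 17.9% and 14.8%. Clock genes other than Per1 went in both directions: 4 above and 2 below of 10 in heart, led by Bhlhe41 (-1.17) and Hlf (-0.69), and 5 above and 1 below of 13 in muscle, led by Arntl (0.64) and Bhlhe40 (0.62). Of 13 clock genes 6 were lower in heart than in muscle and none higher, with Bhlhe40 (-1.46) and Per2 (-1.01) having the smallest p. For this and the other heart against muscle results below, 20.8% of all 9511 genes were lower in heart and 7.52% higher. That split moved with scaling. Among p53 targets other than Cdkn1a, 1 of 7 was above (Btg2, 0.97) and 1 below (Mdm2, -0.55) in heart, and 2 of 9 above (Btg2, 0.996) and 1 below (Eda2r, -0.51) in muscle. Phlda3 (-3.60) and Eda2r (-1.37) were lower in heart than in muscle. Of the integrated stress response genes 1 of 4 was above and 1 below in heart, and 2 of 6 above and 1 below in muscle, and Chac1 (-2.50) and Atf4 (-1.66) were lower in heart than in muscle. The oxidative stress list had 1 of 6 above in heart (Srxn1, 0.41) and 3 of 7 below in muscle, led by Hmox1 (-0.88) and Nqo1 (-0.79), with Txnrd1 (-0.71) and Srxn1 (-0.80) lower in heart than in muscle. No gene of these lists passed for mdx or transgenic against wild type in either tissue, in limma with adjustment over all genes.

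Among the members themselves, over 10 libraries a tissue, the closest pairs in heart were Zbtb16 and Klf9 (Pearson r 0.93) and Tsc22d3 and Klf9 (0.84), and in muscle Sgk1 paired with Ddit4 (0.82) and with Zbtb16 (0.82). Sgk1 and Ddit4 had an r of 0.78 in heart. These are descriptions over libraries that share groups and depth.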
